A study of Mus musculus with 5 samples.

Results

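The replication-dependent histone genes were followed through 5 stages of blood cell formation by DNaseI-seq, which maps DNaseI hypersensitive sites (DHSs), stretches of chromatin that the nuclease DNase I can cut. Members were the RefSeq protein-coding genes of the mouse whose symbol begins with Hist1h, Hist2h, Hist3h or Hist4h, and 67 of 21774 protein-coding genes met this rule. A gene was said to have a promoter site in a stage if a deposited interval overlapped the 1 kb on either side of any of its transcription start sites (TSS). The Hist1 cluster on chromosome 13 held 54 members, Hist2 on chromosome 3 held 10, Hist3 on chromosome 11 held 2 and Hist4 on chromosome 6 held 1. By type there were 6 genes of the linker histone H1, 18 of H2A, 18 of H2B, 12 of H3 and 13 of H4.

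All cells were derived in vitro from 1 line of mouse embryonic stem cells (strain 129) in which GFP reports the expression of Brachyury (Bry), a gene of early mesoderm, and the populations were sorted by GFP and surface markers. Cells with Bry:GFP but without Flk1 were mesoderm (MES), and those with both were hemangioblasts (HB). Hemogenic endothelium (HE) was sorted as Bry:GFP+, Tie2+ and cKit+ but CD41-. Hematopoietic progenitors (HP) were sorted by CD41, and macrophages (MAC) by CD11b. The labels name no drug and no other allele in any group. Each stage was 1 list of sites (n = 1). The MAC label names replicates 1 and 2 together, but only 1 list was analysed for it, so no replicate error can be given and no difference below was tested. The lists of MES, HB, HE, HP and MAC held 21949, 24729, 33305, 17734 and 37456 sites, with no score or read count beside them, so depth is unknown. A gene without a site is one for which none was listed, which does not show that its chromatin was closed. In these bulk populations, fewer cells with an open promoter and a less open promoter in every cell cannot be told apart. At the genes of the sorting markers, Itgam (CD11b) had a site in MAC only, Tek (Tie2) in HE only, Itga2b (CD41) in HE and HP, Kit in every stage but MAC and T (Brachyury) in MES and HB. Kdr (Flk1) had a site in all 5 stages, including the stage sorted as Flk1-.

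Replication-dependent histone genes are short, intron-poor genes that supply the core histones H2A, H2B, H3 and H4 and the linker histone H1 when DNA is copied. They lie in clusters, many as divergent H2A/H2B pairs that share 1 promoter region, and are transcribed in a nuclear body organised by NPAT. Their mRNAs end not in a poly(A) tail but in a stem-loop that is bound by SLBP, and several members of the family are made chiefly in male germ cells.

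That stem-loop is shown first because it marks the members at the end of the gene and was no part of the rule. It is written 5′ to 3′ as DNA on the coding strand, with the 4 loop bases in capitals between the arms of a 6-pair stem. A stem-loop of this form, 16 bases in all, lay within 100 bases of an annotated gene end in 64 of 67 members (95.5%) and in 3 of 21707 other protein-coding genes (0.0138%), namely Clec2d, H3f4 and Slc25a36. Hist1h2an, Hist1h3e and Hist2h2be lacked it there. All 12 members without a site in any stage carried it. The 3 most frequent words and 1 that a single gene held are shown.
Stem-loop of 41 members, Hist1h2ai among them: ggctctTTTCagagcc
Stem-loop of 8 members, Hist1h4k among them: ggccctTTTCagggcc
Stem-loop of 8 members, Hist1h2bl among them: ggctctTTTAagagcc
Stem-loop of Hist1h4a alone: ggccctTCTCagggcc
These words differ from each other in the stem, in the loop or in both, and 41 of the 64 genes shared a single word.

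Promoter sequences of 9 members are shown because they stand for the main outcomes below: H1, H2B and H4 genes with a site in all 5 stages, a gene that had none after HE, and genes that had none in any stage. They come from RefSeq (GRCm38.p6, the assembly of mm10), run from 150 bases before to 30 after the TSS on the coding strand, and have in capitals the match to any promoter word, on either strand, that is counted by type further on (the TATA word, the CCAAT word, the octamer, the H1 box and the H4 element). Of the 67 members 62 matched a RefSeq promoter. Hist1h3f, Hist1h2bc, Hist1h3a, Hist2h2be and Hist2h4 did not match.
Hist4h4 (H4, all 5 stages, chr6:136804402-136804581, minus strand): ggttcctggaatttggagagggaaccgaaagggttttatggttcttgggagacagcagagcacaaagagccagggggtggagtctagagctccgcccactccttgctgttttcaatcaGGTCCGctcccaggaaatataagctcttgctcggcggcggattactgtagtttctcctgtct
Hist1h1c (H1, all 5 stages, chr13:23738657-23738836, plus strand): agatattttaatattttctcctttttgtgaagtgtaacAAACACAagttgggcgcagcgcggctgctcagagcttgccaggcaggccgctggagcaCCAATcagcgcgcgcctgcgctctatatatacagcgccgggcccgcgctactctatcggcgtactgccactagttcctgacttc
Hist2h2bb (H2B, all 5 stages, chr3:96269550-96269729, plus strand): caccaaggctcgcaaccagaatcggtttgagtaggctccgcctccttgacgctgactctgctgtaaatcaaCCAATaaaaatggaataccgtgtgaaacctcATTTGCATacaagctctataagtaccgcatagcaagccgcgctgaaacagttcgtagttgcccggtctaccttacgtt
Hist1h1b (H1, every stage but HP, chr13:21780596-21780775, minus strand): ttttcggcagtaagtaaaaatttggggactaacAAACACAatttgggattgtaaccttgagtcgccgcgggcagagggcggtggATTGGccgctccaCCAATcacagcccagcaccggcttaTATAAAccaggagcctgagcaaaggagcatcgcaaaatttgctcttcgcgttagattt
Hist3h2ba (H2B, MES, HB and HE, chr11:58948761-58948940, plus strand): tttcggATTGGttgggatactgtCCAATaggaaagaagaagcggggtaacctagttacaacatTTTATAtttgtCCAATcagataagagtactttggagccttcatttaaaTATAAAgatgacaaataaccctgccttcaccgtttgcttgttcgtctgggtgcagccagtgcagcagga
Hist1h1a (H1, no stage, chr13:23763518-23763697, plus strand): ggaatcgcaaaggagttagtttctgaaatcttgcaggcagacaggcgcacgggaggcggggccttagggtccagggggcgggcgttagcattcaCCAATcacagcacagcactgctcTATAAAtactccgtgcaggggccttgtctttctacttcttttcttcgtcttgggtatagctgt
Hist1h1t (testis H1, no stage, chr13:23695661-23695840, plus strand): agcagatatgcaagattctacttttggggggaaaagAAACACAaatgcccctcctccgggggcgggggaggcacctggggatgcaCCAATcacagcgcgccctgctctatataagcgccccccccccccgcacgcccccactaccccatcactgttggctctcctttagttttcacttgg
Hist1h2aa (testis H2A, no stage, chr13:23934287-23934466, plus strand): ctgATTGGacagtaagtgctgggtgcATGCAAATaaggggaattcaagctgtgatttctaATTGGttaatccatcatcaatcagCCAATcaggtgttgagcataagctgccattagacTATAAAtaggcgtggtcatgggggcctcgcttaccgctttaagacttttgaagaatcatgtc
Hist1h2bq (H2B, no stage, chr13:21810170-21810349, minus strand): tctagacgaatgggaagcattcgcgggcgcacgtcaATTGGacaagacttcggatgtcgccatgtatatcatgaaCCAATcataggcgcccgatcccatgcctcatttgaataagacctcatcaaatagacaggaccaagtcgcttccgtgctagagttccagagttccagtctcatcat

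In each stage most histone genes had a promoter site within 1 kb. Of the 67 members 45 had a site in MES (67.2%), 49 in HB (73.1%) and 55 in HE (82.1%), and HP and MAC had 48 each (71.6%). Over all 21774 protein-coding genes the shares were 55.5% in MES, 57.1% in HB and 59.9% in HE, and then 48.6% in HP and 48.7% in MAC, so the share of histone genes was the higher in each of the 5 lists. Sites in all 5 stages were found at 38 members (56.7%) against 42.0% of all genes, and no site in any stage at 12 members (17.9%) against 34.3% of all genes. With a reach of 100 bp or of 500 bp, 30 members (44.8%) had a site in all 5 stages, against 39.7% and 41.1% of all genes, which is closer to the background than at 1 kb. The order depended on the narrow sites. When sites below the median width of their list were left out, 21, 35, 51, 23 and 27 members had a site in MES, HB, HE, HP and MAC. The share of members was then below that of all genes in MES (31.3% against 42.9%), in HP (34.3% against 37.7%) and for a site in all 5 stages (14 members, 20.9% against 31.1%). With the lists cut to equal length by width, 34 had a site in MES and 27 in MAC, 21 (31.3%) had one in all 5 stages, against 34.4% of all genes, and MES was again below all genes (50.7% against 52.6%). The remaining 17 members had a site in 1 to 4 stages. Every one of the 55 members with a site within 1 kb in any stage had one in HE, compared with 52 of 53 at a reach of 500 bp and 47 of 50 at 100 bp. Over all genes with a site in any stage these shares were 91.1%, 91.0% and 89.7%, so most genes with a site had one in HE.

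These shares have to be read with the repetition of the family in the genome, since only uniquely placed reads of 50 bases were kept. Uniqueness is given here as the share of 50-base words within 500 bp of a TSS that occur once in the genome. Its median was 70.7% over the members and 100% over all genes, and 46 members (68.7%) against 11.6% of all genes lay under 80%. Among genes at or above 80%, 14 of 21 members (66.7%) had a site in all 5 stages, beside 46.4% of all such genes, and 4 of 21 (19.0%) had none, beside 27.7%. Below 80%, 24 of 46 members (52.2%) had a site in all 5 stages, beside 8.71% of all such genes, and 8 had none, beside 84.4%. The members nearest that limit were Hist1h4i (79.4%) and Hist1h4h (79.7%) under it and Hist1h4b (80%) and Hist2h2ac (80.9%) over it. In the lowest class, up to 10% unique, 7 of 8 members had no site in any stage, close to the 96.9% of all genes in that class.

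**Figure D1:**
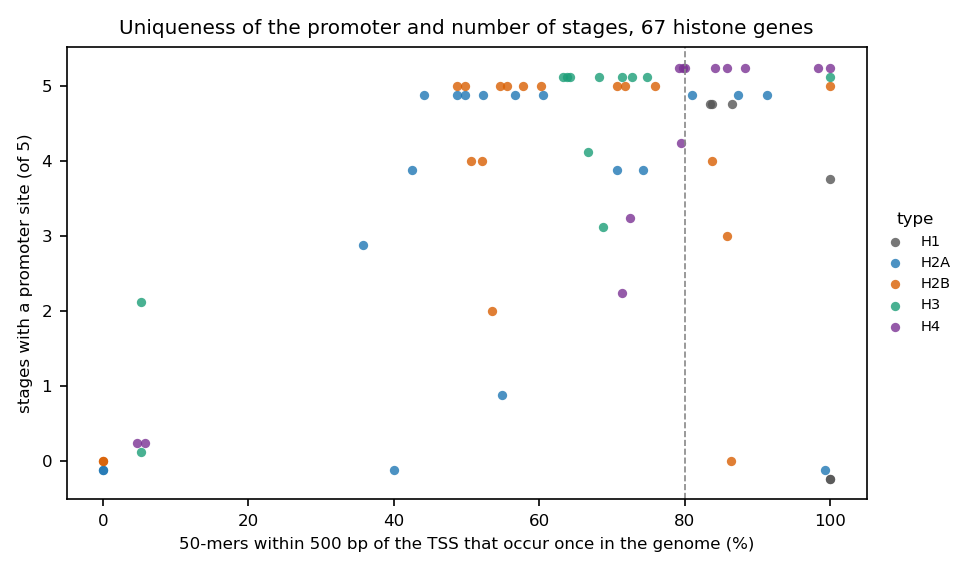
Number of stages with a promoter site (vertical axis, 0 to 5) against the percent of unique 50-base words within 500 bp of the TSS (horizontal axis) for each of the 67 histone genes, coloured by type and shifted slightly by type so that points do not hide each other. The dashed line marks 80%. Genes with no site fall into a group of 8 at or below 40.0% and a group of 4 at or above 86.3%.

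Linker histone H1 packs the DNA between nucleosomes. Of its 6 genes Hist1h1c, Hist1h1d and Hist1h1e had a site in all 5 stages, Hist1h1b in every stage but HP, and Hist1h1a and Hist1h1t in none. The widest site at Hist1h1c measured 1500, 1700, 2000, 1600 and 800 bp in MES, HB, HE, HP and MAC. At Hist1h1d the widths were 1000, 1700, 2000, 1800 and 400 bp in the same order. At Hist1h1e, the H1 gene with the widest site, whose interval also covers a TSS of Hist1h2be in each stage, they were 1100, 1900, 2100, 1800 and 1000 bp. At all 3 genes the widest site was widest in HE and narrowest in MAC. In MES Hist1h1e had a further site of 300 bp, which is the one over its TSS.

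The H1 sites also reached into and past the gene. In MES, HB, HE and HP every H1 gene with a site within reach had its annotated end covered. In MAC no H1 site covered the TSS. The MAC site began 605 bp after the TSS at Hist1h1c, 647 bp after it at Hist1h1e, 914 bp at Hist1h1b and 980 bp at Hist1h1d. The interval at Hist1h1e, like the widest one there in the other 4 stages, also covers an upstream TSS of Hist1h2be, so it cannot be given to 1 of these genes alone. The 4 H1 genes are, in that order, 725, 782, 794 and 776 bp long, so the MAC sites of Hist1h1c and Hist1h1e began 119 and 134 bp before the end of the gene and those of Hist1h1b and Hist1h1d 121 and 205 bp past it. In HP, Hist1h1c, Hist1h1d and Hist1h1e had 1 site each that ran from before the TSS to beyond the gene end. Hist1h1b had in HP a 600 bp interval from 1015 to 1614 bp after its TSS, which lies just outside the 1 kb rule, and with a reach of 2 kb it had a site in all 5 stages. Over all protein-coding genes with a site in MAC, the site covered a TSS in 91.0% and lay downstream only in 3.82%. Uniqueness at the H1 genes had a median of 100% in the 500 bp before the TSS and 85.7% in the 500 bp after it, and its part in the place of the MAC sites was not tested.

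Hist1h1a and Hist1h1t were both 100% unique and had no site within 1 kb of the TSS. Hist1h1t encodes the H1 of the testis. The nearest intervals to Hist1h1a lay upstream, the closest of them in HE, where it ended 1002 bp before the TSS. At Hist1h1t intervals began 1656 bp after the TSS in HE, 1718 bp in MES and 1988 bp in HB, while HP and MAC had none within 2 kb. These intervals cover the TSS of neighbours, Hist1h4a beside Hist1h1a and Hist1h4c beside Hist1h1t. Both genes carry CCAAT ahead of the TSS, as printed above, like the 4 H1 genes that had sites.

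H2A and H2B form the dimers at the outer faces of the nucleosome, and 24 of their 36 genes stood as 12 divergent pairs with 164 to 281 bp between the TSS. H2A genes had sites at 11, 12, 14, 13 and 11 of 18 members in MES, HB, HE, HP and MAC, and H2B genes at 11, 15, 15, 13 and 13 of 18. In all 5 stages 9 H2A and 10 H2B genes had a site, and 4 and 3 had none. A divergent pair that shares an interval is 1 observation, not a pair of them. The 5 pairs Hist1h2ak/Hist1h2bn, Hist1h2an/Hist1h2bp, Hist1h2ah/Hist1h2bk, Hist1h2ae/Hist1h2bg and Hist1h2ac/Hist1h2bc shared a site in all 5 stages, as did the H2B/H3 pair Hist1h2bh/Hist1h3f, whose TSS lie 608 bp apart. Hist1h2bl/Hist1h2ai, Hist1h2bf/Hist1h2ad and Hist2h2ac/Hist2h2be shared one in every stage but MES, and Hist1h2ag/Hist1h2bj in HE only. The pairs Hist1h2bq/Hist1h2ao, Hist1h2ap/Hist1h2br and Hist1h2ba/Hist1h2aa had none.

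Some H2A and H2B genes lacked a site in MES alone at a reach of 1 kb. These were Hist1h2bf, Hist1h2ad, Hist1h2bl and Hist2h2be, a pattern of 4 members (5.97%) and of 0.528% of all genes. The shared interval of Hist1h2bf and Hist1h2ad was 500, 200, 400 and 300 bp wide in HB, HE, HP and MAC, so it was narrowest in HE, unlike most members. Uniqueness at these 4 genes was 50.6%, 42.5%, 52.1% and 83.7%. At Hist2h2be the TSS itself was covered in HE, HP and MAC, while the HB interval ended 928 bp before it. At Hist1h2bl the TSS was covered in HE and HP only. The pattern depended on the reach, since with 2 kb all 4 genes had a site in all 5 stages and with 500 bp Hist1h2bl lacked one in HB and MAC as well and Hist2h2be in HB.

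Other H2A and H2B genes had sites in some stages only, again at a reach of 1 kb. With 2 kb Hist1h2af, Hist1h2ab, Hist1h2bj and Hist1h2ag had a site in all 5 stages. Hist1h2af and Hist1h2ab had sites in every stage but MAC, but these intervals began 592 to 954 bp and 179 to 941 bp after the TSS, so none covered it. Hist1h2bj had sites in HB (500 bp) and HE (1300 bp), and its partner Hist1h2ag only the HE site. Hist2h2aa1 had sites of 1300, 900 and 800 bp in HE, HP and MAC, all upstream of the TSS, and its neighbour Hist2h2aa2, 40.0% unique, had none. Hist3h2ba, of the small Hist3 cluster and 85.8% unique, had a site that covered the TSS in MES (600 bp), HB (600 bp) and HE (1400 bp) and none in HP or MAC. The other Hist3 gene, Hist3h2a, kept a site of 1000, 1200, 1700, 1100 and 900 bp in MES, HB, HE, HP and MAC. The widest H2A and H2B sites were the 2700 bp HE interval shared by Hist2h2ab, Hist2h2ac and Hist2h2be.

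The 6 remaining H2A and H2B genes without any site fall into 2 kinds. Hist1h2aa and Hist1h2ba, the divergent pair of the testis-specific H2A and H2B, were 99.2% and 86.3% unique. Hist1h2bq, Hist1h2br, Hist1h2ao and Hist1h2ap were 0% unique. Hist1h2bq and Hist1h2br lie 27.3 kb apart and were identical over the 800 bases compared around the TSS, as were Hist1h2ao and Hist1h2ap, 22.7 kb apart. No read of 50 bases that lies within 500 bp of these TSS can be placed uniquely by exact match in the reference, so the lists hold no measurement there.

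H3 and H4 form the core tetramer of the nucleosome. Sites were listed at 10, 9, 11, 9 and 10 of 12 H3 genes in MES, HB, HE, HP and MAC, with 8 in all 5 stages and 1 in none. Of the 13 H4 genes 9, 9, 11, 10 and 10 had a site, 8 in all 5 stages and 2 in none. Among members of at least 80% uniqueness all 6 H4 genes had a site in every stage. The H4 genes that lie outside Hist1 had broad sites throughout, with 1300, 1300, 1900, 1600 and 1600 bp at Hist4h4 and 1500, 1700, 2000, 1700 and 1400 bp at Hist2h4. Hist1h4h had 1200, 1500, 1800, 1500 and 1300 bp. These 3 genes kept over 1 kb in MAC, where the median over the 34 distinct intervals of members was 600 bp. Of the other types, Hist1h3e and the pair Hist1h2bh/Hist1h3f also kept over 1 kb there, with 1200 bp.

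Several H4 and H3 genes of Hist1 had sites in some stages only. Hist1h4k had a site in HB (400 bp) and HE (1100 bp), Hist1h4j in HE (2000 bp), HP (300 bp) and MAC (300 bp), and Hist1h4i in every stage but HB, with 500, 1600, 500 and 300 bp in MES, HE, HP and MAC. Hist1h3i had 300, 800 and 1400 bp in MES, HB and HE, none in HP and 200 bp in MAC. Hist1h3d had 300 bp in MES, 1000 bp in HE and 300 bp in HP, of which none covered the TSS. The 5 genes had uniqueness between 66.7% and 79.4%. The widest interval counted for an H3 gene was the 2600 bp HE interval at Hist1h3h, which also covers the TSS of Hist1h2bl and Hist1h2ai and ends 138 bp past that of Hist1h3h. The other stages had 300 to 700 bp there.

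The near-identical copies limit what can be said of the rest. Hist1h4m and Hist1h4n, with 1 edit in 800 bases, had no site and were 5.78% and 4.73% unique. Hist2h3c2 and Hist2h3c1 also differed by 1 edit in 800 bases and were each 5.25% unique. Hist2h3c2 had a site in HE (1600 bp) and MAC (300 bp), which began 600 and 912 bp after the TSS, and Hist2h3c1 had none. Near Hist2h3c2, MES and HB had intervals of 600 and 800 bp beyond 1 kb, their middles 1442 and 1483 bp from its TSS. The HE interval spans both, and with a reach of 2 kb Hist2h3c2 had a site in MES, HB, HE and MAC. Reads from such copies are placed only where they differ, so the values of the 2 copies are uncertain.

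**Figure D2:**
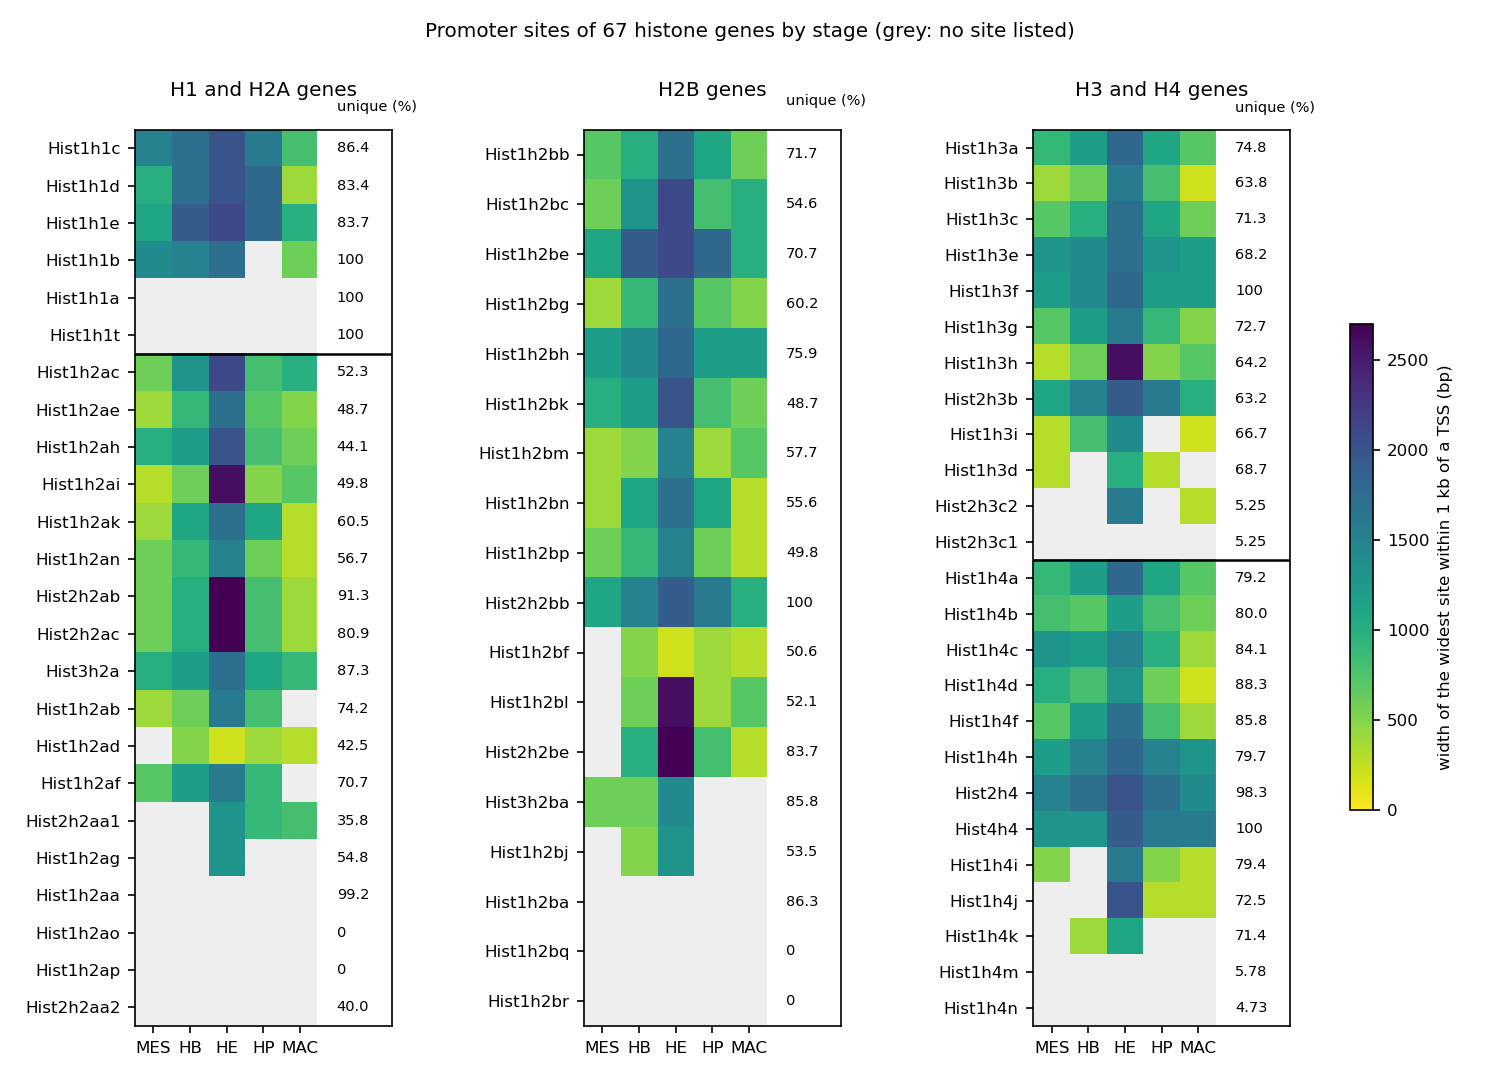
Width in bp (colour) of the widest site within 1 kb of a TSS for each of the 67 histone genes (rows) in each stage (columns), with the percent of unique 50-base words at the right. Grey means no site listed. Most rows are darkest in HE, and 12 rows are grey throughout.

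**Figure D3:**
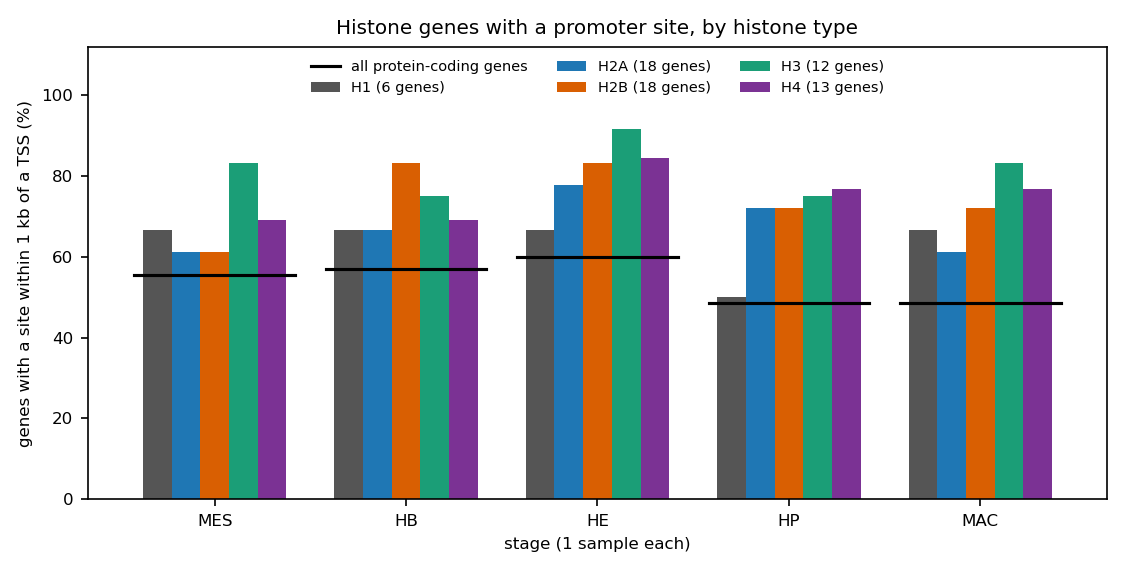
Percent of the genes of each histone type with a promoter site (bars) in each stage, 1 sample each, with the percent of all protein-coding genes as a black line. Every bar of H3 and H4 stands above the line of its stage, and H1 in HP (50.0%) is the bar closest to it.

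Beside its place, a site had only a width. The 33 distinct intervals at histone genes in MES had a median width of 700 bp against 1000 bp over all promoter intervals of that list. The medians were 1200 bp for the 33 intervals of HB (1200 over all) and 1700 bp for the 38 of HE (1600). For the 34 intervals of HP and the 34 of MAC they were 800 bp (1100) and 600 bp (800). Histone intervals were thus narrower than those of other promoters in MES, HP and MAC, and about as wide in HB and HE. Among members of at least 80% uniqueness the medians were 1050 bp in MES and 1150 bp in HP, so they were not below those of all promoters in these 2 stages. Both lay above them by less than 100 bp, the step in which widths are listed. The promoters they were set against were not held to the same uniqueness. Because the genes are short, the interval often took in the whole gene. In HE 36 of 55 genes were covered from end to end, compared with 11 of 45 in MES, 14 of 49 in HB, 12 of 48 in HP and 4 of 48 in MAC. HE intervals were the widest over all promoters as well.

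The position of the sites differed by type. Taken in the order MES, HB, HE, HP and MAC, the gene end was covered at 6 of 9, 7 of 9, 10 of 11, 7 of 10 and 3 of 10 of the H4 genes with a site. At H2A genes it was covered at 1 of 11, 1 of 12, 10 of 14, 1 of 13 and 1 of 11, and at H2B genes at 2 of 11, 2 of 15, 10 of 15, 1 of 13 and 0 of 13. At H3 genes the counts were 1 of 10, 2 of 9, 6 of 11, 2 of 9 and 1 of 10. H1 and H4 genes therefore mostly had their ends covered in MES, HB and HP, where most H2A, H2B and H3 genes did not. In other protein-coding genes of at most 1 kb with a site, these shares were 12.8%, 15.0%, 50.0%, 16.7% and 2.70%. Median uniqueness in the 500 bp after the TSS ran in the same direction, with 85.7% for H1 and 57.2% for H4 against 35.8% for H2A, 40.6% for H2B and 31.8% for H3. Its part in the difference between types was not tested.

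The TSS of H4 genes was covered in 9 of 9, 9 of 9, 10 of 11, 9 of 10 and 9 of 10 genes with a site in MES, HB, HE, HP and MAC. For H3 the counts were 6 of 10, 6 of 9, 8 of 11, 6 of 9 and 2 of 10, and in MAC 5 H3 genes had a site only upstream and 3 only downstream. Over all members the site covered the TSS at 36 of 45, 39 of 49, 45 of 55, 40 of 48 and 32 of 48 genes, the last a share of 66.7%, against 93.6%, 94.3%, 92.2%, 94.7% and 91.0% of all genes with a site, counting any TSS of a gene. Some intervals counted for a member therefore lie closer to a neighbour. Hist1h3c is one such case, since its intervals ended 146 to 791 bp before its TSS in all 5 stages and are shared with Hist1h2bb.

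**Figure D4:**
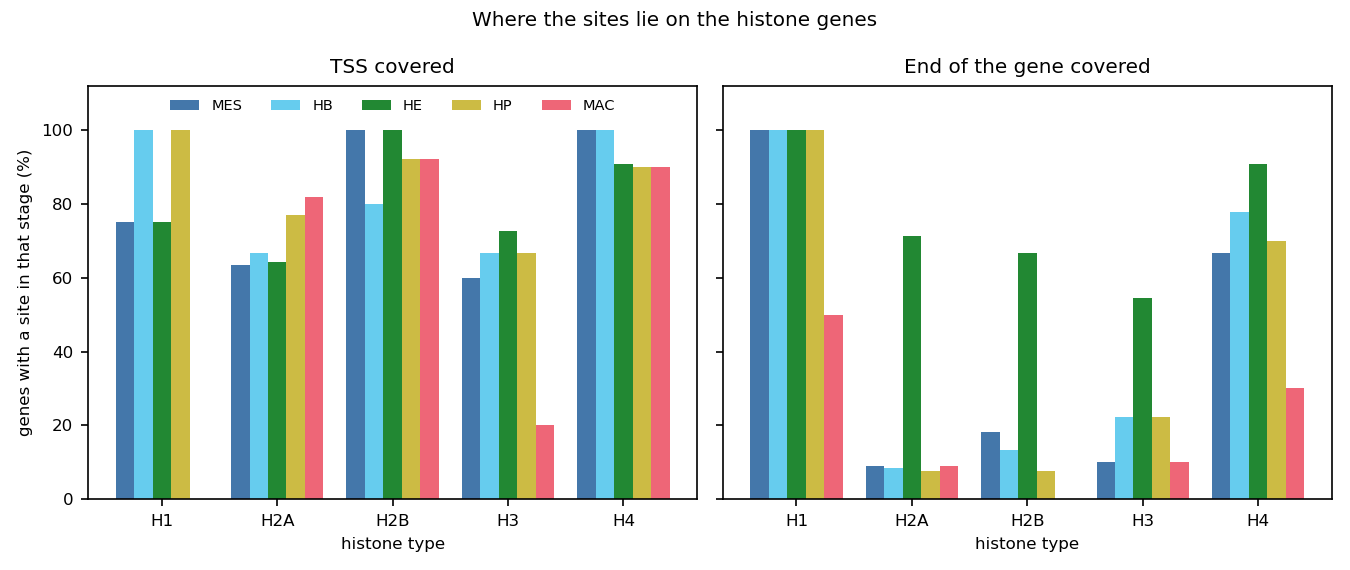
Percent of the genes with a site in a stage whose TSS (left) or annotated gene end (right) was covered by that site, for each histone type, with 1 bar per stage. H1 falls from 100% TSS coverage in HP to 0% in MAC, and H1 and H4 have the highest gene-end coverage in each of the 5 stages.

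**Figure D5:**
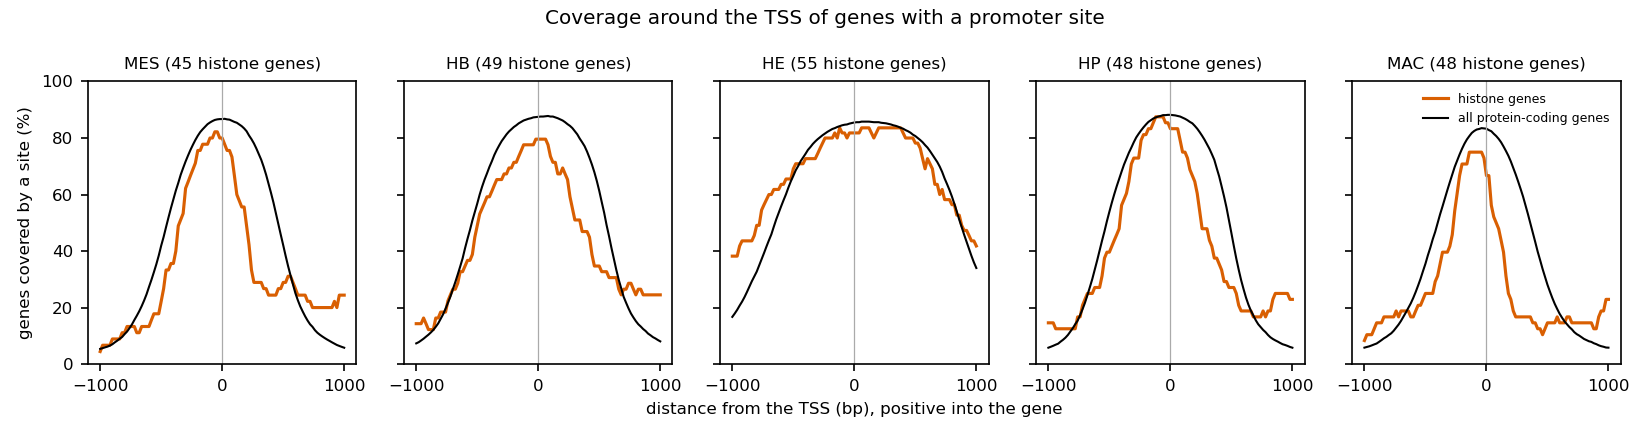
Percent of genes with a promoter site that are covered at each distance in bp from the TSS, in 1 panel per stage, for histone genes (orange) and all protein-coding genes (black). At 500 bp into the gene the histone line is below the other in each stage, with 28.9% against 42.1% in MES and 14.6% against 28.1% in MAC.

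Coverage was compared at equal distances on both sides of the TSS. At 200 bp before it 34 of 45, 35 of 49, 44 of 55, 39 of 48 and 34 of 48 histone genes with a site were covered in MES, HB, HE, HP and MAC, and at 200 bp after it 22, 34, 46, 31 and 11 of them. Over all genes the shares were 80.8%, 83.9%, 82.7%, 84.8% and 76.2% before and 82.4%, 86.2%, 85.6%, 84.3% and 71.7% after. The drop across the TSS was thus greatest in MAC, from 70.8% to 22.9% of the histone genes, while in HE coverage was slightly higher after the TSS. At this distance histone genes were further below all genes after the TSS than before it in MES, HB, HP and MAC, but not in HE. At 500 bp MES and HE went the other way. MES had 22.2% against 41.9% of all genes before the TSS and 28.9% against 42.1% after it, and HE 69.1% against 66.6% before it and 78.2% against 80.7% after it. In HB, HP and MAC 24 of 49, 19 of 48 and 12 of 48 histone genes were covered before the TSS, against 56.8%, 53.9% and 35.5% of all genes. After it the shares were 34.7%, 27.1% and 14.6%, against 61.3%, 46.4% and 28.1%. Within the windows of genes with a site, bases inside the intervals were 88.6% unique and those outside 78.5% in MES, and 91.1% and 74.1% in MAC. In HB, HE and HP inside and outside differed by less, with 79.7% and 82.0%, 79.1% and 79.7%, and 80.3% and 79.8%. The part of uniqueness in the shape of the profile was not tested.

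Between neighbouring stages histone genes mostly kept a site within 1 kb. From MES to HB 43 of 45 genes kept a site (95.6%, against 96.2% of all genes) and 6 of the 22 without a site gained one (27.3%, against 8.26%). The 6 were Hist1h2bl, Hist1h4k, Hist1h2bj, Hist1h2bf, Hist1h2ad and Hist2h2be, of which Hist1h2bf and Hist1h2ad share 1 interval. The HB intervals of Hist1h2bl, Hist1h2bj and Hist2h2be lay 916, 801 and 928 bp from the TSS. With a reach of 2 kb 1 of 13 gained a site (7.69%, against 8.52%). With 500 bp 5 of 28 did (17.9%, against 7.84%) and with 100 bp 4 of 30 (13.3%, against 7.65%). From HB to HE all 49 kept a site (100%, against 94.8%) and 6 of 18 gained one (33.3%, against 13.4%), namely Hist1h4j, Hist1h4i, Hist1h2ag, Hist1h3d, Hist2h3c2 and Hist2h2aa1. Of these, Hist2h3c2 already had an interval in MES and HB, beyond 1 kb of its TSS. From HE to HP 48 of 55 kept a site (87.3%, against 79.9%) and 0 of 12 gained one, against 2.05%. The 7 genes without a site after this step were Hist1h4k, Hist1h1b, Hist1h3i, Hist1h2ag, Hist1h2bj, Hist2h3c2 and Hist3h2ba. From HP to MAC 45 of 48 kept it (93.8%, against 89.4%), Hist1h2af, Hist1h3d and Hist1h2ab lost it, and 3 of 19 without a site, Hist1h1b, Hist1h3i and Hist2h3c2, had one again (15.8%, against 10.1%). With a reach of 2 kb, Hist1h2af, Hist1h3d, Hist1h2ab, Hist1h1b, Hist1h2ag and Hist1h2bj had a site in all 5 stages. At that reach 53 of 53 genes kept one from HP to MAC, against 90.0% of all genes. Narrower reaches put members below all genes at this step. With 500 bp 38 of 46 kept a site (82.6%, against 88.9%) and with 100 bp 35 of 42 (83.3%, against 88.3%). The gain from HP to MAC depended on the reach as well. It was 2 of 14 with 2 kb (14.3%, against 11.9%) and 1 of 21 with 500 bp (4.76%, against 8.98%). With 100 bp it was 1 of 25, against 7.95% of all genes. With the lists cut to equal length by width, 45 of 51 (88.2%, against 86.7% of all genes) kept one from HE to HP, but 26 of 48 (54.2%, against 74.8%) from HP to MAC. Without the sites below the median width of each list, 23 of 51 (45.1%, against 70.7%) kept one from HE to HP.

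The Hist1 members lay in 4 groups separated by more than 100 kb. The first (18 genes, 122 kb) held 7 genes with a site in all 5 stages and 6 with none, which were 0% to 5.78% unique. The second (5 genes, 8.54 kb) held 2 with a site in all 5. The third (29 genes, 233 kb) held 22 with a site in all 5 and 2 with none, Hist1h1a and Hist1h1t. The fourth (2 genes, 1.19 kb) is the testis pair Hist1h2ba/Hist1h2aa with none. Median uniqueness was 53.8%, 53.5%, 74.2% and 92.8% in the 4 groups in this order. Its part in the differences between groups was not tested. In Hist2, 5 of 10 genes had a site in all 5 stages and 2 had none, and the single Hist4 gene had one in all 5. Across the whole Hist1 span of 2219 kb lie 50 other protein-coding genes. Of these 42 had no site in any stage and 3, Zfp184, Zfp322a and Abt1, had one in all 5. Over all protein-coding genes 34.3% had no site and 42.0% had one in all 5 stages. Most of the 42 bear symbols that begin with Vmn1r and lie outside the 4 groups, so the count mostly describes that family. Hfe, which encodes a regulator of iron uptake, lies inside the third group and had a site in MES, HE and MAC.

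Few sites inside these groups lay away from a member. An interval whose middle lay 2940, 3058 and 2853 bp from the Hist1h4c TSS was listed in HB (400 bp), HE (500 bp) and MAC (600 bp). The third Hist1 group held 4 intervals in MAC, 3 in HE, 1 in HB and none in MES or HP that lay beyond 1 kb of any member and any other coding gene. In Hist2, an interval was listed in HE (1200 bp) with its middle 6055 bp from the Hist2h2be TSS and in MAC (900 bp) with its middle 6093 bp from it.

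Short promoter words known from work on histone genes were counted by type. Both strands of the 300 bases from 250 before to 50 after the TSS were searched, and a match is a description of the letters only. CCAAT, the word bound by NF-Y, was present in 6 of 6 H1, 18 of 18 H2A, 16 of 16 H2B and 10 of 10 H3 promoters but in 3 of 12 H4 promoters, against 39.0% of 17492 promoters. GGTCCG, the core of an H4 element, was present in 11 of 12 H4 promoters, with a median position of -46.0, against 10.6% of all. AAACACA, the H1 box, was present in 5 of 6 H1 promoters at -122 to -112, against 6.13%, and Hist1h1a was the one without it. TATAAA was present in 56.5% of members against 13.3%, and in 12 genes it lay on the coding strand at -40 to -20.

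The octamer ATTTGCAT, bound by POU2F1, was present in 6 of 16 H2B and 7 of 18 H2A promoters and in no H1, H3 or H4 promoter, which makes 13 of 62 members, against 1.71% of all promoters. In all 6 H2B genes it stood on the coding strand and in all 7 H2A genes on the opposite strand, and some of these are the same bases seen from the 2 genes of a divergent pair. It is printed above in Hist2h2bb on the coding strand and in Hist1h2aa on the other. TTTCGCGC, an E2F-type word, was present in 5 H2A and 4 H2B promoters, for 14.5% of members against 0.446%, on the coding strand in the H2A genes and on the other in the H2B genes. The testis pair Hist1h2ba/Hist1h2aa had the octamer and no listed site. Among the 4 members of at least 80% uniqueness without a site, CCAAT was present in 4, TATAAA in 3 and AAACACA in 3.

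Base composition was compared between histone promoters and all promoters. A promoter was called CpG-rich if its GC share was at least 0.5 and its ratio of observed to expected CpG at least 0.6. Histone promoters had a median GC of 45.3% against 56.3% and a CpG ratio of 0.748 against 0.576, and 13 of 62 were CpG-rich against 45.7%. Over all genes 73.5% of CpG-rich promoters and 17.6% of the others had a site in all 5 stages. For the members the order was the other way round, with 4 of 13 CpG-rich promoters (30.8%) and 30 of 49 others (61.2%). Of the 13 CpG-rich members 7 were under 60% unique, of which none had a site in all 5 stages and 4 had no site at all. All 4 CpG-rich members with a site in all 5 stages were among the 6 of at least 60% uniqueness (66.7%). Of the other members of at least 60% uniqueness 21 of 32 (65.6%) had one, so the lower share of CpG-rich members was not seen among these. No site in any stage was found at 8 of those 49 members (16.3%), against 59.4% of all genes in that class.

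Genes that act on histone genes and histones were examined as lists. The 23 genes for transcription and mRNA processing of histone genes, among them Npat, Hinfp, Slbp, Lsm10 and Lsm11, each had a promoter site in every stage. So did the 12 histone chaperone genes, among them Chaf1a, Asf1b and Nasp. Over all protein-coding genes 42.0% had a site in all 5 stages and 34.3% had none. Of 15 genes of variant histones, many of which are made outside S phase, 8 had a site in all 5 stages and 3 had none, the germ cell genes H1fnt, Hils1 and H2bfm. H1fx had a site in MES (900 bp), HB (1800 bp) and HE (1800 bp), and H2afy2, encoding macroH2A2, in MES (500 bp), HB (1000 bp) and HE (1500 bp), while both had none in HP and MAC. H1f0, the replacement H1 of resting cells, had one in MES (400 bp), HB (600 bp) and HP (500 bp), and H1foo, the H1 of the oocyte, in HE (500 bp) and MAC (300 bp).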

How the data were processed

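DNaseI-seq of 5 sorted populations was analysed, 1 sample per stage, as lists of sites. From the methods of the study, reads of 50 bases were trimmed (CutAdapt), aligned to mm10 (Bowtie) and kept if placed uniquely, duplicates were taken out (Picard), and DFilter called the sites on a grid of 100 bp bins. The processing notes of the submitters also name HOMER. Versions are not given in the sources used here. What the authors deposited is the first and last position of each site in bp, with no score and no depth, and every width was a multiple of 100 bp.

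Genes, TSS and sequences came from RefSeq on GRCm38.p6, the assembly of mm10. That release lists the Hist symbols as synonyms of newer ones, and all 67 members were matched through them, where 3 genes carried several and the GENCODE symbol decided. Members, gene lists and tests were chosen with earlier results of these data known. Every member could be named. For members without a site in at least 1 stage the stages with a site are given, with widths or positions for some of them. The widest site of each type and the least unique promoters are given as well. Other members are given by counts and ranges. A site counted within 1 kb of any annotated TSS. Words of 50 bases were counted by exact match over both strands of the primary chromosomes (Python 3.11.15, numpy 2.4.6, numba 0.67.0), and copies were aligned with edlib 1.3.9.post1. The counting of sites and words was tested on simulated data. With 1 sample per group there is no test. Alternatives were the reach (100 bp, 500 bp and 2 kb), curated TSS only, 500 bp windows around the middle of each site, 2 stricter sets of wide sites, members of at least 80% uniqueness and shared promoters counted once.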

Additional observations from a re-analysis of the deposited data

How the results depend on the processing

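Of 93 values recomputed under other settings, 73 stayed within 1.5 times the main count, or within 100 bp for a width, and 20 moved. When sites narrower than the median of their list were left out, 21 members had a site in MES, 23 in HP and 27 in MAC, and 14 had one in all 5 stages (20.9%, against 31.1% of all genes), while the median width was 1150 bp in MES, 1250 in HP and 850 in MAC. With each list cut to its 17734 widest sites, as many as the shortest list holds, 27 members had a site in MAC and 21 in all 5 stages, with median widths of 1000 bp in MES and 850 in MAC. Both sets hold fewer and wider sites by construction. Among the 21 members of at least 80% uniqueness, 16, 17, 17, 15 and 16 had a site in MES, HB, HE, HP and MAC, 14 in all 5 stages and 4 in none. Their median widths were 1050 bp in MES and 1150 in HP, where the main medians were below those of all promoters. These are above them by less than the 100 bp step of the widths. Fewer genes enter there. Members within 300 bp of each other counted once, a setting chosen after seeing the data, gave 55 promoters, of which 33 had a site in all 5 stages and 9 in none. A site in all 5 stages was found at 30 members (44.8%) with a reach of 100 bp, 30 with 500 bp and 49 (73.1%) with 2 kb, against 39.7%, 41.1% and 43.4% of all genes. A reach of 100 bp changed the stages of 21 members, 500 bp of 17 and 2 kb of 15, and curated TSS of 0. With 2 kb, Hist1h1a had a site in all 5 stages and Hist1h1t in MES, HB and HE, but these intervals cover the TSS of Hist1h4a and Hist1h4c. The counts of kept sites under these settings were also added after seeing the data. Depth is unknown, so a missing site may lie under the threshold of its list. No paired analysis was possible because each stage has 1 sample.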
